A study of Mus musculus with 4 samples.

Results

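The 10 scavenger receptor genes Marco, Msr1, Cd36, Mrc1, Cd163, Cd68, Scarb1, Stab1, Olr1 and Cd5l were described in mouse bone marrow-derived macrophages, before and after exposure to bacterial lipopolysaccharide (LPS). The members were selected by gene symbol and each matched 1 of the 54532 genes of the table. All 10 had a mean of at least 1 CPM (counts scaled to the normalized size of the library) over the libraries. The cells came from C57BL/6 mice aged 6 to 8 weeks and were grown from femur and tibia marrow for 6 days in medium holding 20% L929-conditioned medium. Every mouse carried floxed Fbxw7 alleles (FBXW7f/f). By the titles, WT libraries had these alleles alone and KO libraries also carried LysM-cre, although the genotype tags differ, as given below. LysM-cre is a Cre recombinase driven by the lysozyme gene Lyz2 and therefore restricted to myeloid cells. Fbxw7 encodes the substrate receptor of a ubiquitin ligase. For each title there was 1 untreated library and 1 library from cells given LPS for 3 h. The sources used here give neither the LPS dose nor the number of animals behind a library.

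Scavenger receptors are surface and endosomal proteins that bind modified lipoproteins, microbial walls, apoptotic cells and protein complexes and carry them into the cell. They share ligands rather than ancestry and are sorted into classes by domain structure. Class A receptors (Marco, Msr1) have collagenous stalks, class B receptors (Cd36, Scarb1) have paired membrane anchors, and others carry C-type lectin, fasciclin or cysteine-rich scavenger domains. On macrophages they are known for foam cell formation, haemoglobin clearance and the uptake of bacteria, and several respond to inflammatory signals.

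The 4 libraries held 17610372 to 23835940 counts. The check on treatment passed: all 10 genes of a list of known LPS targets, such as Tnf and Il6, rose. Macrophage markers were abundant, with the 9 listed genes summing to between 18195 and 30246 CPM. Lyz2, whose values are given below, was the largest of them in each library. T cell, fibroblast, erythroid and mast cell markers summed to at most 6.00 CPM in any library. The genotype labels were not settled. The genotype tags placed LysM-cre on both LPS libraries and on neither untreated one, against the titles. Fbxw7 was 17.9 and 17.2 CPM in the untreated libraries titled WT and KO and 9.90 and 11.7 CPM after LPS, and a gene-level count cannot show the loss of a floxed exon. Lyz1, the neighbour of the cre-bearing gene Lyz2, was 2.86, 32.9, 33.1 and 2.63 CPM in the order untreated WT, untreated KO, LPS-treated WT and LPS-treated KO by title. Lists of 4 values below keep this order. Lyz1 thus set the untreated library titled KO beside the LPS library titled WT. Lyz2 itself was 15253, 8711, 9917 and 18238 CPM, so it was lower in the same libraries in which Lyz1 was higher. The cause of these levels was not tested. Treatment was the same in titles and tags, so values are given first for treatment and then by title, and each genotype direction is one between titled libraries.

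The authors' FPKM is a fragment count corrected for transcript length and library size. The library sizes it implies are scaled ones, not the library totals, so FPKM compared between libraries rest on that scaling. Read per unit length in this measure, Cd68 and Cd36 were among the 3 most abundant of these transcripts in each library. Marco was too, except in the untreated library titled KO, where Cd5l and Stab1 lay above it. Cd68, which encodes macrosialin, a glycoprotein of late endosomes and a general macrophage marker, was at 351, 511, 694 and 459 FPKM. It ranked first of the 10 genes in 3 libraries and second, behind Marco, in the LPS library titled KO. Cd36, the fatty acid translocase, was at 213, 225, 302 and 322 FPKM. Marco held 20.8, 5.37, 7.08 and 34.1% of the summed FPKM of the 10 genes, the widest range of any member with at least 1% in each library. Cd5l was between 84.5 and 259 FPKM, Stab1 between 28.4 and 66.2, Mrc1 between 27.9 and 76.8, and Msr1 between 16.6 and 58.1. Scarb1 stayed between 6.82 and 10.3 FPKM, and Cd163 was below 1 FPKM in every library. Olr1 went from 0.261 and 0.449 FPKM untreated to 41.8 and 25.3 FPKM after LPS. The 10 genes together took 0.393, 0.321, 0.301 and 0.405% of all counts, with a 95% Wilson interval of 0.390 to 0.396% for the first of these. Intervals of this kind cover counting error only.

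**Figure D1:**
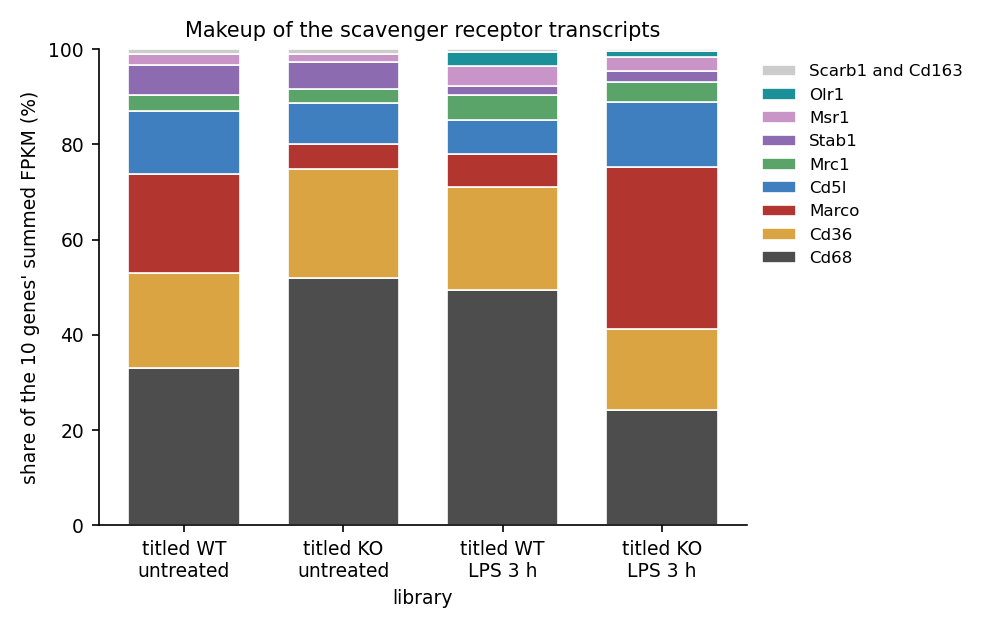
Share of the summed FPKM of the 10 genes (y axis, %) taken by each gene in each library (x axis, by title and treatment), with Scarb1 and Cd163 drawn together. Cd68 took 52.0 and 49.5% in the untreated library titled KO and the LPS library titled WT, where Marco took 5.37 and 7.08%.

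Which receptors responded to LPS was asked of all libraries at once. Olr1, Msr1 and Mrc1 rose after LPS, and no member fell by the test. The test was edgeR's quasi-likelihood F test of an additive model of treatment and genotype title, with Benjamini-Hochberg adjustment over 13989 genes. It called 9.35% of genes as rising and 5.14% as falling (14.5% in all), the background for 3 rising and 0 falling of the 10 members. With 1 library per group the model keeps 1 residual degree of freedom, and its spread is the departure of the libraries from additivity. When genotype title was left out, the model called 16.7% of genes as rising and 15.3% as falling (32.1% in all), and the same 3 members rose. The median LPS effect of the members was 0.50 log2 units, against −0.05 over all genes tested. With library totals in place of TMM scaling the median of all genes was −0.63, Olr1 still rose (5.91 ± 0.45), Msr1 and Mrc1 were no longer called, and Scarb1 was called as falling. In 6 of 10 members the LPS libraries lay wholly above (4) or wholly below (2) the untreated ones, beside 34.6% of 12326 genes wholly above and 38.1% wholly below (72.7% in all). Fewer cells of a kind and less RNA per cell cannot be told apart in these bulk libraries.

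**Figure D2:**
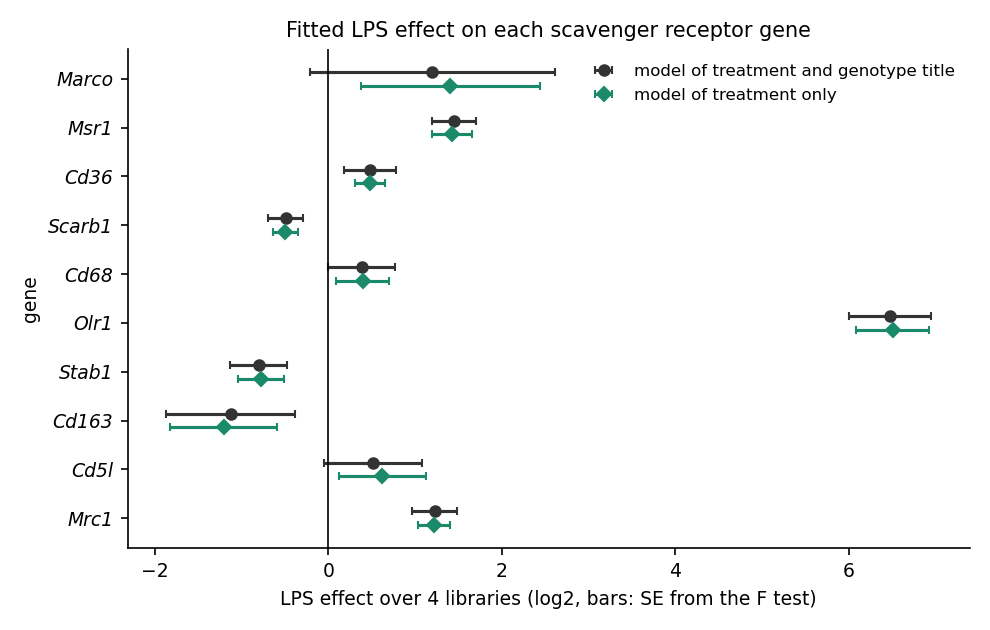
LPS effect over the 4 libraries (x axis, log2) for each gene (y axis) in the model of treatment and genotype title (circles) and of treatment only (diamonds), with bars of 1 SE implied by the F test. Olr1 stands at 6.48 and 6.51, Msr1 at 1.45 and 1.43, and Mrc1 at 1.23 and 1.22, while the bars of Marco span 1.41 and 1.03 to each side.

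Olr1 (ENSMUSG00000030162, chromosome 6, 129485244 to 129507165, minus strand) encodes LOX-1, a C-type lectin-like receptor for oxidized low-density lipoprotein. It had 21 and 46 counts in the untreated libraries titled WT and KO and 2555 and 1438 after LPS. These are 0.952, 1.66, 149 and 88.0 CPM, so the transcript was scarce without LPS and both LPS libraries were far above. The LPS level was 156-fold (95% counting interval 102 to 253) the untreated level in the libraries titled WT. It was 52.9-fold (39.5 to 72.6) the untreated level in those titled KO. The smallest of the 4 ratios between an LPS and an untreated library was 52.9. In edgeR's additive model Olr1 rose by 6.48 ± 0.47 log2 units (SE implied by the F test, adjusted p = 0.00535), the largest effect among the members.

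Mrc1 (ENSMUSG00000026712, chromosome 2, 14229392 to 14332057, plus strand) encodes the mannose receptor CD206, a multi-lectin endocytic receptor widely used as a marker of alternatively activated macrophages. Its levels were 229.9, 184, 463 and 476 CPM, and the LPS libraries lay close together above both untreated ones. The rise was 1.23 ± 0.26 log2 units (edgeR, adjusted p = 0.0434). The LPS level was 2.02-fold (1.95 to 2.09) the untreated one in the libraries titled WT and 2.58-fold (2.49 to 2.68) in those titled KO. With library totals the effect was 0.65 (edgeR, adjusted p = 0.135).

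Msr1 (ENSMUSG00000025044, chromosome 8, 39581685 to 39642673, minus strand) encodes scavenger receptor A1, the class A receptor of acetylated lipoprotein. It stood at 157, 109, 367 and 333 CPM, again with both LPS libraries above both untreated ones. Msr1 rose by 1.45 ± 0.25 log2 units (edgeR, adjusted p = 0.0264), and the LPS level was 2.34-fold (2.24 to 2.44) and 3.04-fold (2.91 to 3.18) the untreated one in the libraries titled WT and KO. With library totals the effect was 0.87 (edgeR, adjusted p = 0.0673).

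The sequences before the start sites of Olr1 and Mrc1, which rose, are shown with those of Marco and Cd5l, whose LPS ratios were opposite in the 2 titles. Each is the 250 bases before the RefSeq start site in GRCm38.p6, read 5′ to 3′ on the gene's strand. The windows are chr6:129507166-129507415 (Olr1, minus strand), chr2:14229164-14229413 (Mrc1, plus strand), chr1:120505025-120505274 (Marco, minus strand) and chr3:87357631-87357880 (Cd5l, plus strand). Such a window was at hand for 8 of the 10 genes, but not for Msr1, which also rose, or for Scarb1. The start site used for Cd36 lay 52905 bases downstream of the deposited one. The start site was that of the deposited gene for Olr1, Marco and Cd5l and lay 22 bases downstream of it for Mrc1. Capitals mark TGANTCA, a core bound by AP-1 factors, and GAGGAA, a core bound by PU.1 and other ETS factors, on either strand, where TTCCTC is GAGGAA read on the other strand.
Olr1: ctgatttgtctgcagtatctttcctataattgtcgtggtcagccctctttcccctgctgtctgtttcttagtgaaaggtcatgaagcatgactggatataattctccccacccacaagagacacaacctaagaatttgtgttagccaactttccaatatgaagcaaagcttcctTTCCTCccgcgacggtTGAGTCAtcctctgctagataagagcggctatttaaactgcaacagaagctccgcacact
Mrc1: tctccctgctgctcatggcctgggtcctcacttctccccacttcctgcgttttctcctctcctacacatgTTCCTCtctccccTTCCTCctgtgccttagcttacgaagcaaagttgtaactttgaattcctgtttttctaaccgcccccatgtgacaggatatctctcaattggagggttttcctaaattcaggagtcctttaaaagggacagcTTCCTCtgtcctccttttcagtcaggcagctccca
Marco: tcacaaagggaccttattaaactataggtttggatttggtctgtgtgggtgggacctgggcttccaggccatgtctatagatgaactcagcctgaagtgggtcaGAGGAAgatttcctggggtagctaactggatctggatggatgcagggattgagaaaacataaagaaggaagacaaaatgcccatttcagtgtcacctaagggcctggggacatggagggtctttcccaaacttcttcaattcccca
Cd5l: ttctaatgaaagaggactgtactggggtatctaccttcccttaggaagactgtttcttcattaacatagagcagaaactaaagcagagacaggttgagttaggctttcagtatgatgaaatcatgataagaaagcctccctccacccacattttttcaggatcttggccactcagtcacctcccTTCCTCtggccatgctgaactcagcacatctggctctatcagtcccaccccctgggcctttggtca
TGANTCA stood in the Olr1 window with its first base at position −60 (the start site follows position −1) and in none of the other 3 shown. It also stood at −149 and −24 in the window of Cd68, which was not called as rising. GAGGAA stood at −76 in Olr1, at −180, −167 and −35 in Mrc1, at −146 in Marco and at −66 in Cd5l. The windows of Stab1 and Cd68 held it too, at −30 and −225, and Stab1 was lower in both LPS libraries. Of 32851 windows of this length, 6.75% held TGANTCA and 23.3% held GAGGAA. Neither the NF-κB consensus nor the core of the interferon-stimulated response element (GAAA, any pair of bases, GAAA) was found in any of the 8 windows; 7.25% and 2.98% of all windows held them. A match is a match of letters only. Motifs did not overlap in these windows.

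Marco (ENSMUSG00000026390, chromosome 1, 120474538 to 120505024, minus strand), the class A receptor for unopsonized bacteria and particles, had the widest spread among the abundant members. Its counts were 9562, 2920, 3268 and 19798, or 434, 106, 190.3 and 1211 CPM. The highest library was the LPS library titled KO and the lowest the untreated library titled KO, so treated and untreated values overlapped. In the libraries titled WT, Marco was 2.28-fold (2.19 to 2.37) lower after LPS, and in those titled KO it was 11.5-fold (11.04 to 11.93) higher. Between titles, the untreated library titled KO was 4.11-fold (3.94 to 4.28) lower than that titled WT, and the LPS library titled KO 6.37-fold (6.13 to 6.61) higher. The fitted LPS effect was 1.20 ± 1.41 log2 units (edgeR, adjusted p = 0.581), and 1.41 in the treatment-only model. Leaving out 1 library from the latter gave −0.48 without the LPS library titled KO, 0.72 without the untreated one titled KO, and 2.20 and 2.78 without the LPS and the untreated library titled WT. Within a library, where scaling has no part, the FPKM of Marco was 9.09, 3.18, 1.71 and 12.0 times that of Msr1. The libraries high in Marco were those low in Lyz1.

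Cd5l (ENSMUSG00000015854, chromosome 3, 87357881 to 87371073, plus strand) encodes AIM, a secreted protein of scavenger receptor cysteine-rich domains that macrophages release and that supports their survival. It stood at 295, 178, 200.4 and 513 CPM, which ranks the libraries as Marco does. It was 1.47-fold (1.41 to 1.54) lower after LPS in the libraries titled WT and 2.88-fold (2.78 to 2.98) higher in those titled KO. After LPS the library titled KO was 2.56-fold (2.46 to 2.66) higher than that titled WT, and untreated it was 1.65-fold (1.59 to 1.72) lower. The fitted LPS effect was 0.52 ± 0.56 (edgeR, adjusted p = 0.551), and −0.056 with library totals. In the treatment-only model it was 0.63, and −0.21 without the LPS library titled KO, 0.30 without the untreated one titled KO, and 1.15 and 1.05 without the LPS and the untreated library titled WT.

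Cd163 (ENSMUSG00000008845, chromosome 6, 124304656 to 124330527, plus strand), the receptor that clears haptoglobin-haemoglobin complexes, was scarce in every library. It had 122, 60, 18 and 36 counts, or 5.53, 2.17, 1.05 and 2.20 CPM. A floor of 3 counts, about the upper 95% limit for a count of 0 when only that side is bounded, was 0.108 to 0.184 CPM. The untreated library titled WT was the highest and the LPS library titled WT the lowest. Cd163 was 5.28-fold (3.20 to 9.21) lower after LPS in the libraries titled WT, and its ratio in those titled KO was 1.02 (0.652 to 1.56). Untreated, it was 2.55-fold (1.86 to 3.53) lower in the library titled KO. After LPS it was 2.10-fold (1.16 to 3.93) higher there, just short of a call at 0.99 log2 units with the prior count, and called with library totals, DESeq2 size factors or a smaller prior count. The LPS effect over all libraries was −1.13 ± 0.74 (edgeR, adjusted p = 0.341). In the treatment-only model it was −1.21, and −0.37 and −0.76 without the untreated and the LPS library titled WT, and −1.74 and −1.84 without those titled KO.

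Stab1 (ENSMUSG00000042286, chromosome 14, 31139013 to 31168641, minus strand) encodes stabilin-1, a fasciclin-domain receptor for acetylated lipoprotein and the matrix protein SPARC. It was at 696, 603, 291 and 451 CPM, with both LPS libraries below both untreated ones. The LPS level was 2.39-fold (2.32 to 2.47) lower in the libraries titled WT and 1.34-fold (1.30 to 1.37) lower in those titled KO. The fitted effect, −0.80 ± 0.33, did not pass (edgeR, adjusted p = 0.168). Of its 10288 exon bases, 112 are shared with Nt5dc2 on the other strand, which had 1211 to 3531 counts. The sources used here do not say whether counting used strand, so reads in those bases cannot be told apart.

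The class B receptors had smaller ratios. Cd36 (ENSMUSG00000002944, chromosome 5, 17781690 to 17888801, minus strand) stood at 779, 836, 1078 and 1125 CPM. Both LPS libraries were above both untreated ones, by 1.38-fold (1.36 to 1.41) and 1.34-fold (1.32 to 1.37) within the titles, and the fitted effect of 0.48 ± 0.30 did not pass (edgeR, adjusted p = 0.311). Its sign rests on the scaling: with library totals it was −0.092, and the log2 ratios within titles WT and KO were −0.14 and −0.039. Scarb1 (ENSMUSG00000037936, chromosome 5, 125277087 to 125341094, minus strand), the high-density lipoprotein receptor, stood at 89.3, 77.5, 59.1 and 56.5 CPM. Here both LPS libraries were below both untreated ones, by 1.51-fold (1.40 to 1.63) and 1.37-fold (1.27 to 1.48) within the titles. The effect of −0.49 ± 0.20 did not pass (edgeR, adjusted p = 0.169), and with library totals it was −1.07 and passed (edgeR, adjusted p = 0.0325). Within a library Cd36 was 20.7, 25.5, 43.2 and 47.2 times Scarb1 in FPKM, a ratio that no scaling of libraries alters and that was higher in both LPS libraries.

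Cd68 (ENSMUSG00000018774, chromosome 11, 69664213 to 69666153, minus strand) was at 449.9, 667, 869 and 562 CPM. The LPS library titled WT was the highest and the untreated library titled WT the lowest. Cd68 was 1.93-fold (1.88 to 1.98) higher after LPS in the libraries titled WT and 1.19-fold (1.16 to 1.22) lower in those titled KO. The fitted LPS effect was 0.39 ± 0.38 (edgeR, adjusted p = 0.516), and −0.19 with library totals.

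**Figure D3:**
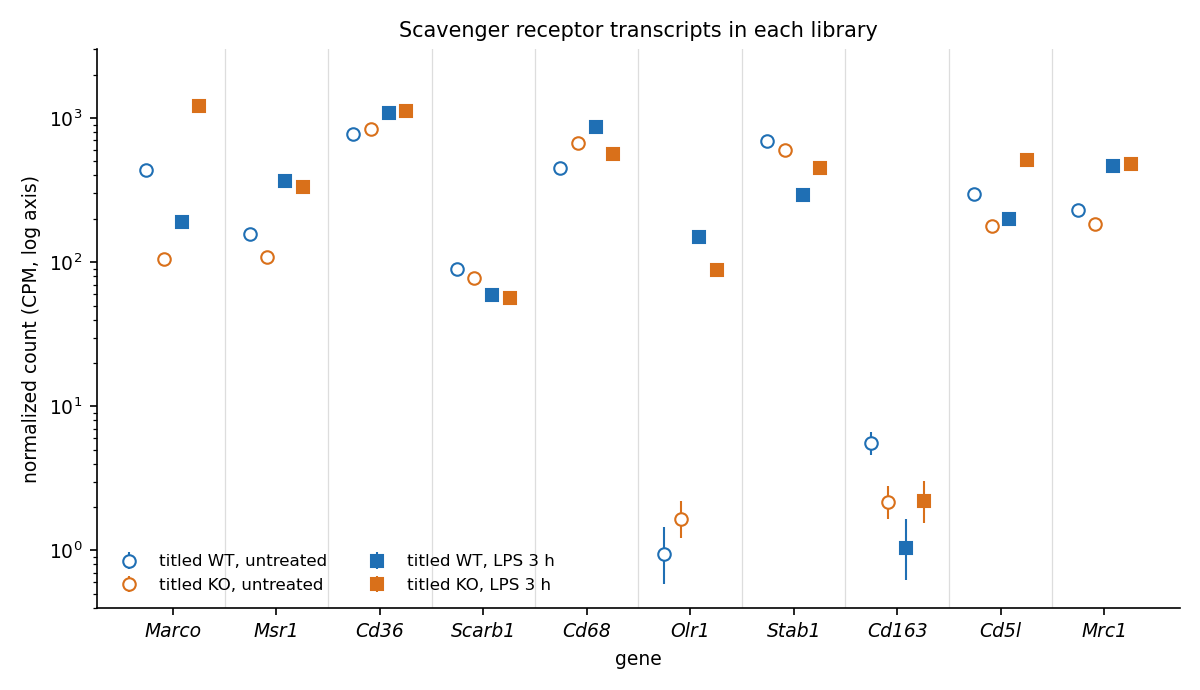
Normalized count (y axis, CPM, log axis) of each gene (x axis) in the 4 libraries, where circles are untreated, squares LPS, blue titles WT and orange titles KO. Bars show 95% counting intervals, mostly hidden behind the symbols. Olr1 separates by treatment (0.952 and 1.66 against 149 and 88.0 CPM), while Marco is highest and lowest in the libraries titled KO (1211 and 106 CPM).

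Comparisons of 2 libraries have no replicate check and carry no p-value, so a size rule was used. A gene was called when it differed 2-fold or more, on counts with a prior count of 2, and its counting interval excluded no change. Within the libraries titled WT, 3 members were called higher after LPS (Olr1, Msr1, Mrc1) and 3 lower (Cd163, Stab1, Marco), beside 15.4% of 12326 genes called higher and 15% lower (30.4% in all). Mrc1 lay at the edge of this rule, its interval running on both sides of 2-fold. Within the libraries titled KO, 5 were called higher (Olr1, Marco, Msr1, Cd5l, Mrc1) and 0 lower, beside 14.6% and 17.8% of genes (32.4% in all). The members' median log2 ratio was −0.04 in the first comparison and 0.90 in the second, against −0.01 and −0.07 over all genes. Between the untreated libraries, 2 members (Marco, Cd163) were called lower in the one titled KO and 0 higher, beside 2.07% and 3.18% of genes (5.25% in all). After LPS, 2 members (Marco, Cd5l) were called higher in the library titled KO and 0 lower, beside 3.36% and 4.76% of genes (8.12% in all). These comparisons share libraries, so their counts are not separate evidence.

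The difference between the LPS ratios of the titles was largest for Marco, at 4.71 log2 units (95% counting interval 4.63 to 4.79, KO minus WT). It was 2.31 (1.42 to 3.21) for Cd163, 2.08 (2.00 to 2.16) for Cd5l, −1.20 (−1.25 to −1.14) for Cd68 and −1.49 (−2.21 to −0.77) for Olr1. These 5 members were called, 3 higher and 2 lower, beside 7.72% and 10.3% of genes (18.1% in all); no replicate bears on any of them. For Cd36, Mrc1, Msr1, Scarb1 and Stab1 the difference was under 2-fold, between −0.04 and 0.84. The genotype title had no called effect over the 4 libraries. EdgeR's additive model called 0 of 13989 genes (0%) at an adjusted p of 0.05 and 39 at an unadjusted p under 0.05. DESeq2 and limma-voom also called 0. This effect averages the untreated and the LPS difference between titles, so opposite differences cancel. For Marco these log2 differences were −2.04 and 2.67. With 1 residual degree of freedom besides, the absence of calls cannot show that the titled libraries did not differ. Among the members the title effect ran from −0.34 ± 0.25 for Msr1 to 0.31 ± 1.42 for Marco (edgeR, adjusted p = 1 for each).

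**Figure D4:**
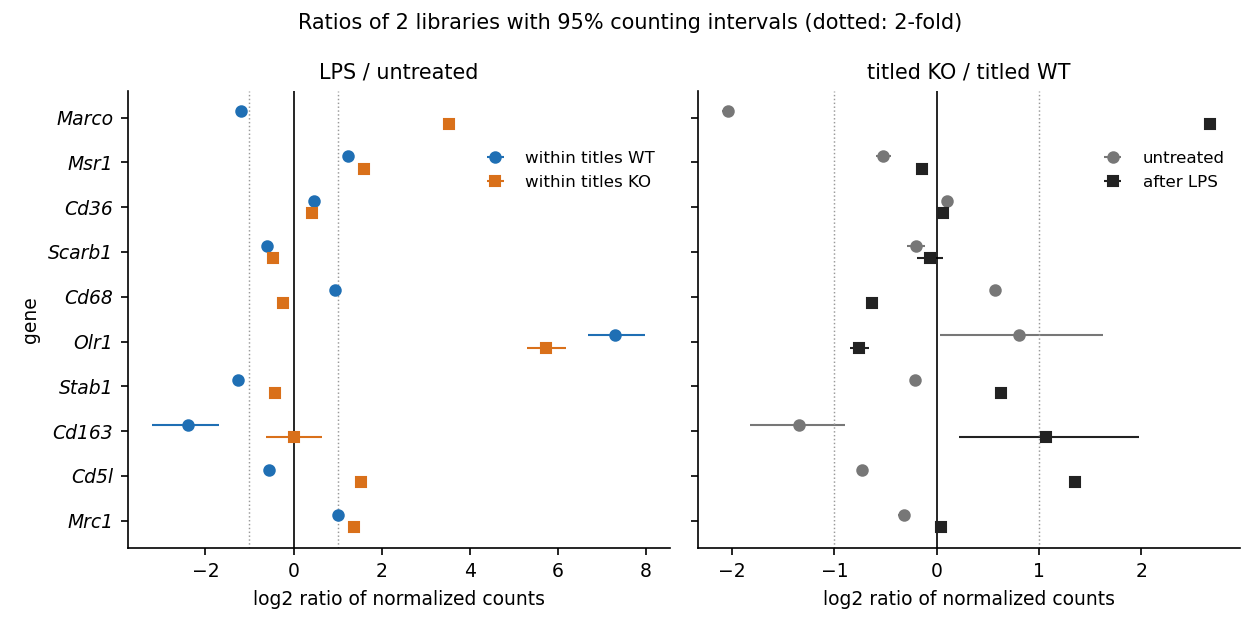
Log2 ratios of normalized counts (x axis) for each gene (y axis), on the left LPS over untreated within titles WT (circles) and KO (squares), on the right the library titled KO over that titled WT, untreated (circles) and after LPS (squares). Bars are 95% counting intervals and dotted lines mark 2-fold. Marco, Cd5l and Cd68 lie on opposite sides of no change in the left panel, and Olr1 lies far to the right for both titles.

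Markers of other cell types were set beside these patterns over their whole lists. The B cell list summed to 31.6, 17.2, 9.96 and 27.5 CPM, high in the same libraries as Marco and Cd5l. Nearly all of it was Cd79b (167 to 692 counts), while Ms4a1 had at most 4 counts. The dendritic cell list summed to 6.89, 3.54, 15.3 and 24.2 CPM. Within it Itgax had 113, 37, 36 and 243 counts (5.12, 1.34, 2.10 and 14.9 CPM). Xcr1 had 10, 25, 221 and 144 counts and rose (4.02 ± 0.55, edgeR, adjusted p = 0.0152). Cd209a was at 0 in every library and Flt3 at no more than 9 counts. The endothelial list summed to 78.9, 102, 73.3 and 66.1 CPM, with Tek, Lyve1 and Emcn at 9 counts or fewer. Its other genes did not share 1 pattern. Kdr stood at 15.1, 56.3, 53.0 and 16.2 CPM and Pecam1 at 56.7, 41.4, 16.5 and 43.1 CPM. Cdh5 was at 4.54, 2.39, 3.09 and 3.61 CPM (100, 66, 53 and 59 counts). The neutrophil list summed to 3.72, 4.05, 10.6 and 3.18 CPM. The T cell list summed to 0.136, 0.615, 3.26 and 6.00 CPM, higher in both LPS libraries, as Olr1 was. Nearly all of it after LPS was Lck (1, 11, 53 and 98 counts), and Cd3e, Cd3d and Cd2 had 0 to 3 counts. The part of these cells in the Marco, Cd5l, Cd68 and Olr1 values was not tested.

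In a list of other scavenger receptors, mannose receptor relatives and their co-receptors, 5 of 18 tested genes rose after LPS and 0 fell. Tlr2, a co-receptor with Cd36 for bacterial lipopeptides, rose by 2.86 ± 0.28 log2 units and Cd44, the hyaluronan receptor, by 2.25 ± 0.33. Scarf2 and Scarf1, class F receptors, rose by 2.02 ± 0.35 and 1.31 ± 0.24, and the fifth, Tlr4, named after its values were seen, by 1.17 ± 0.22 (edgeR, adjusted p from 0.00783 to 0.0307). With library totals 3 rose and 2 fell, where 6.55% of all genes rose and 22.5% fell, and Scarf1 and Tlr4 were no longer called. Scara3 and Scara5, class A relatives, had 0 counts in every library. Cd14, the LPS co-receptor, had a large fitted effect of 2.40 ± 0.68 that did not pass (edgeR, adjusted p = 0.0800). Its 6422, 19018, 57814 and 25743 counts were highest in the LPS library titled WT. In the list of lipid uptake, storage and efflux genes, 2 of 19 rose and 1 fell. Acsl1, which activates fatty acids, rose by 2.08 ± 0.35, and Rxra, the partner of LXR and PPAR receptors, fell (−2.31 ± 0.29; edgeR, adjusted p = 0.0237 and 0.0131). With library totals 2 rose and 5 fell, beside the same 6.55% and 22.5%. Of 21 apoptotic cell uptake genes 1 rose, Itgav (1.35 ± 0.23), and 1 fell, Itgb5 (−1.41 ± 0.22; edgeR, adjusted p = 0.0264 and 0.0209), both encoding subunits of vitronectin-binding integrins. Itgav was not called with library totals. Over all genes tested, as above, 9.35% rose and 5.14% fell.

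Genes whose pattern lay nearest to a member's were sought among 9222 protein-coding genes of at least 5 CPM, by the root mean square distance of log2 CPM centred over the 4 libraries. For Marco only Itgax (CD11c) lay within 0.2 log2 units, at 0.0873, followed by the lectin gene Cd209f at 0.207. The distance is not scaled to a gene's range, so a member that varies widely tends to have fewer genes within 0.2. Itgax had 37 counts in the untreated library titled KO and 36 in the LPS library titled WT, so its distance carries counting error. Olr1 had 2 genes within 0.2, Tnfsf15 (0.109) and the inducible nitric oxide synthase gene Nos2 (0.149). Nearest to Cd5l were Cks1b (0.0830) and the Fc receptor-like gene Fcrls (0.0849), with 24 genes within 0.2. Nearest to Cd163, which had only 18 to 122 counts, were the mitosis genes Ckap2 (0.0664) and Prr11 (0.0818). Ssh2 and Ptpn12 lay nearest to Msr1, Cab39l and Vps54 to Mrc1, Rnh1 and Capg to Cd68, and Mast4 and Herc3 to Stab1, with 96 to 334 genes within 0.2. The nearest were Poldip3 and Atp5l for Cd36 and Rb1cc1 and Zfp553 for Scarb1, but 1925 genes lay within 0.2 of Cd36 and 1554 within 0.2 of Scarb1, so nearness to these members singles out little. With 4 libraries the measure describes these libraries and carries no test.

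**Figure D5:**
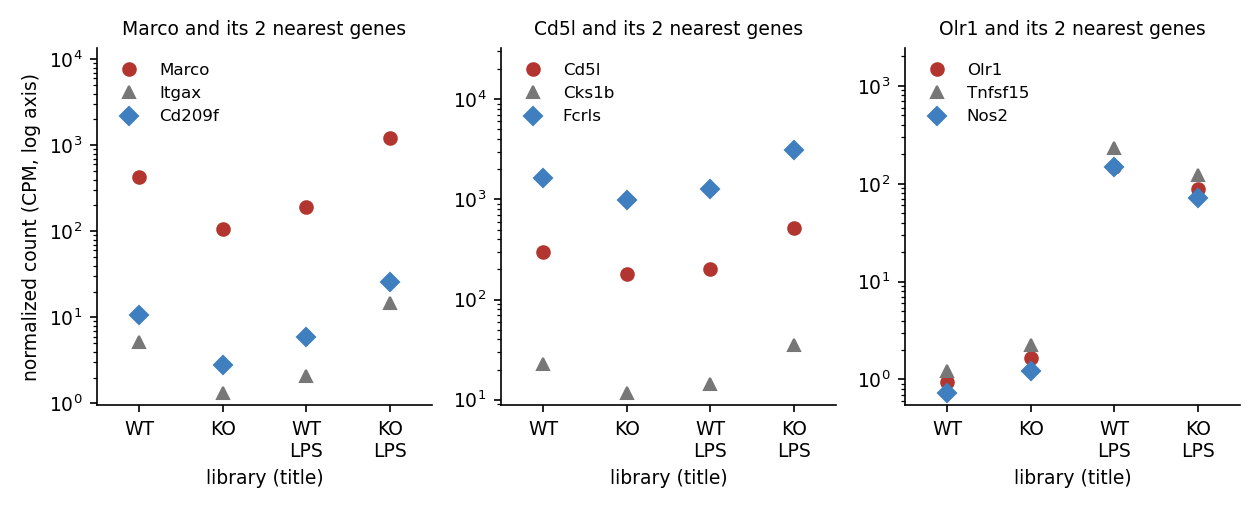
Normalized count (y axis, CPM, log axis) in the 4 libraries (x axis, by title) of Marco, Cd5l and Olr1 and of the 2 genes nearest to each in pattern. Marco, Itgax and Cd209f are lowest in the untreated library titled KO (106, 1.34 and 2.82 CPM) and highest in the LPS library titled KO (1211, 14.9 and 25.6 CPM).

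The authors' deposited table gave its own comparisons of 2 libraries, by a test that is not named in the sources used here. With 1 library on each side, its p-values cannot measure a spread between replicates. In the authors' deposited table Marco had an adjusted p of 0.000614 between the untreated titles and 8.86e-07 between the LPS titles, and was the 1 member under 0.05 in each, beside 0.823% and 1.59% of the genes with a value. Under 0.05 for LPS in titles WT were 5 members of the authors' deposited table, beside 18.2% of its genes, and 5 for LPS in titles KO, beside 19.2%. Mrc1 had 0.0641 in titles WT and 0.00838 in titles KO in the authors' deposited table.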

How the data were processed

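Polyadenylated RNA of 4 libraries was sequenced in read pairs, per the labels' protocols. The submitters' processing notes name HISAT2 2.0.5 and the mm10 build. The deposited table held raw read counts per gene and FPKM, per the file headers. It also held the authors' log2 fold changes and p-values for 4 comparisons, per the file headers. A further 8 per-sample columns were left unused. The sources used here name no counting program, strand setting or test of the authors. GENCODE M21 (GRCm38) placed 53499 of 54409 matched genes at the deposited position, all 10 members included.

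CPM used TMM scaling over all genes. The models used edgeR 4.0.16 (filterByExpr, then TMM, 13989 genes), with DESeq2 1.42.0 and limma 3.58.1 as alternatives, in R 4.3.3. Tables and figures used Python 3.11.15. Each ± beside an edgeR effect is the SE implied by its F statistic. On data simulated for the LPS comparison with 13989 genes, edgeR recovered 89% of genes changed 4-fold and 100% of those changed 16-fold. It also called 9 unchanged genes. Every simulated gene had the same dispersion, no genotype effect and the same LPS response in both titles. Changes under 4-fold, such as those of Msr1 and Mrc1, were not simulated. The recovery therefore does not carry over to the real libraries. Ratios of 2 libraries used exact 95% binomial intervals, and the difference of ratios a 95% Poisson interval. Groups followed titles. Separate cultures or animals are not labelled, so no p-value measures a spread between replicates. In the additive model it rests on the departure of these libraries from additivity. In the treatment-only model it rests on the spread between libraries of unlike title. The members and lists were chosen with earlier results of these data known. Named genes were the members, Lyz1, Lyz2 and Fbxw7, up to 4 called genes of largest LPS effect per list, genes needed as partners of a member, and the 2 nearest in pattern. Tlr4, Spi1, Hmox1 and Spic were named after their values were seen. Some genes of the lists are counted but not reported here by name.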

Additional observations from a re-analysis of the deposited data

Results flagged for a closer look

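In 3 members the LPS ratio was on opposite sides of no change in the 2 titles, each beyond its counting interval, and with 1 library per group the difference was not tested. For Marco the log2 ratio in titles KO exceeded that in titles WT by 4.71, with 434 and 106 CPM in the untreated libraries titled WT and KO and 190.3 and 1211 CPM after LPS. For Cd5l the difference was 2.08. For Cd68 it was −1.20, with the higher ratio in titles WT.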

How the results depend on the processing

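The additive model compared LPS and untreated libraries within genotype title. No pairing by culture or animal was possible, because each group held 1 library and the titles carry no replicate numbers. With library totals the LPS effect turned for Cd36 (−0.092), Cd68 (−0.19) and Cd5l (−0.056), 1 member rose (Olr1) and 1 fell (Scarb1), and 3143 genes fell against 719. In titles WT they gave 1199 genes higher and 4038 lower, with 1 member higher and 5 lower, and in titles KO 1176 and 3860 genes. Calls that were higher made up 22.6% of all LPS calls over the 4 libraries with library totals against 64.5%, 22.9% against 50.7% in titles WT and 23.4% against 45.1% in titles KO. Without the filter 1999 genes rose and 1798 fell, and for genotype title 1 was higher and 1 lower. With treatment alone 2339 rose and 2146 fell. Leaving out 1 library from that model gave 1480 to 1701 rising and 980 to 1235 falling genes, with 3 members rising and 0 falling each time. Without the LPS library titled KO the effect was −0.48 for Marco and −0.21 for Cd5l; the cause was not tested. The authors' FPKM also rest on scaled library sizes, not on library totals. In FPKM with a pseudocount of 1, 761 genes were lower in titles WT and 818 in titles KO. Between untreated titles FPKM gave 159 higher and 70 lower, with 1 member lower (Marco), and after LPS 149 and 221. The looser rule of 1.5-fold gave 2855 and 3119 genes in titles WT, 2912 and 3598 in titles KO, 984 and 740 between untreated titles (1 member higher, 3 lower) and 1012 and 1300 after LPS (4 members higher, 2 lower). Without a minimum CPM 649 and 521 genes were called between untreated titles. Depth limits Cd163 and untreated Olr1, whose intervals are the widest.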

Other observations

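Among 16 transcription regulators reported for these receptors, 2 rose and 4 fell after LPS. Tfec and Mitf, related bHLH zipper factors, rose by 3.15 ± 0.56 and 2.22 ± 0.24 log2 units. Cebpa fell (−4.59 ± 0.24), as did Tfeb (−4.46 ± 0.33) and Maf (−1.71 ± 0.25; edgeR, adjusted p from 0.00438 to 0.0283 over the genes named). With library totals 2 rose and 6 fell, where 6.55% of all genes rose and 22.5% fell. Spi1, which encodes PU.1, stood at 0.27 ± 0.27 (edgeR, adjusted p = 0.515). Of 14 haemoglobin and haem handling genes 1 rose, the iron transporter Slc11a2 (1.503 ± 0.22; edgeR, adjusted p = 0.0176), and 0 fell. Hmox1, haem oxygenase 1, stood at 625, 351, 221 and 362 CPM, with an LPS effect of −0.69 ± 0.45 (edgeR, adjusted p = 0.334). Spic, a factor of iron-recycling macrophages, stood at 7.30, 4.52, 8.33 and 22.9 CPM, with an effect of 1.31 ± 0.61 (edgeR, adjusted p = 0.209). The background is 9.35% rising and 5.14% falling genes.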
